A study of Homo sapiens with 4 samples.

Results

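The genes examined here encode the proteins that copy DNA and make its building blocks. They were 54 genes out of 19774 with a probe set naming them alone. They were listed by name for their function, with earlier results of these data already known. Together they had 107 of the 40914 probe sets that name a single gene. They were grouped by role as origin licensing (15 genes), helicase activation and fork (9), clamp, clamp loader and single-strand binding (9), polymerases and primase (10), Okazaki fragment and chromatin assembly (5) and nucleotide synthesis (6).

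DNA is copied in S phase from origins that are prepared earlier in the cycle. The origin recognition complex ORC, with CDC6 and CDT1, loads the ring-shaped MCM2-7 helicase, and geminin (GMNN) binds CDT1 to stop a second loading. MCM10, CDC45 and GINS turn the helicase on, primase and the DNA polymerases extend from RNA primers behind it, and PCNA, a sliding clamp loaded by RFC, holds the polymerases on the template while RPA coats single strands. Many of these genes are transcribed under E2F factors as cells approach S phase. CDT1 is destroyed in S phase by cullin-RING ubiquitin ligases, which work when the small protein NEDD8 is attached to their cullin. DCUN1D1 is one of the proteins that promote this attachment, so the comparison asks whether its knockdown is accompanied by a change in the RNA of the replication genes.

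RNA came from DU145, an established line from a human prostate carcinoma that grows without androgen, kept in DMEM with serum and antibiotics. The control group (shGFP, 2 arrays) carried a lentiviral shRNA against green fluorescent protein and the knockdown group (shDCUN1D1, 2 arrays) a lentiviral shRNA against DCUN1D1. The records give both groups 16 h in this medium before the RNA was extracted, and name DMSO for both without saying how it was used. The methods describe a longer incubation after infection, with a change of medium, before RNA was collected. How these 2 accounts fit together is not stated, so the length of the knockdown is not settled here. The samples were called biological duplicates. The methods mention 2 different shRNAs against DCUN1D1, but the records do not say which array had which, so the knockdown replicates may differ in their shRNA. Nothing states separate transductions, so any p-value measures the spread between these samples, which may be technical. Values were log2 signals of probe sets on 1-colour Affymetrix arrays, hybridised with cRNA made from 1 µg of total RNA.

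The arrays differed in ways that touch every result below. Nonspecific control probes of 20 G or C bases, which match no transcript, read 2.97 and 3.30 on the control arrays and 2.48 and 2.51 on the knockdown arrays. A gene is called above background here where its signal exceeded that control on the same array, which held for 10.4% to 15.2% of genes on the control arrays and for 23.3% to 27.8% on the knockdown arrays. Knockdown replicate 1 stood apart: the 3′ GAPDH control probes read 10.8 there and 4.68 to 5.09 on the other arrays, while the middle GAPDH probes read 11.1 there and 9.05 to 10.0 elsewhere. The 3′ ACTB probes read 8.30 there and 3.95 to 4.35 elsewhere. The part that these array differences play in the results was not tested. DCUN1D1 itself had signals of 2.55 and 1.99 in the control and 1.60 and 1.45 in the knockdown, a log2 fold change of -0.75 (limma SE 0.26, adjusted p = 0.59, n = 2 against 2). Of its 6 probe sets 4 were lower and 2 higher, and their mean gave -0.22. It was above background on 0 arrays and did not pass the fold bound described next, so the arrays give little check of the labels. Among the DU145 epithelial markers, KRT8 read 3.25 to 3.73 and was above background on every array, KRT18 read 7.62 in knockdown replicate 1 and 1.63 to 1.69 elsewhere, and EPCAM was above background on no array. The summed log2 signal of the 6 epithelial markers measured was 12.8 and 14.2 in the control and 18.0 and 12.7 in the knockdown, and of the 5 leukocyte markers measured none was above background on any array. KRT19, CDH1 and KRT5, the other epithelial markers measured, were above background on no array either. Of the other lists, the fibroblast marker COL1A1 read 3.38 and 4.06 in the control and 3.51 and 4.75 in the knockdown, above background on every array, with the other 5 fibroblast markers above it on none. The luminal marker TMPRSS2 read 2.90 to 3.72 and was above background on 3 arrays. The part of these markers in the results was not tested.

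The promoters of the genes that the results turn on are shown first, because the E2F and CCAAT elements in front of replication genes are how many of them are switched on together. Each line holds the 120 bases before the annotated transcription start, 5′ to 3′ on the strand of the gene, from RefSeq on GRCh38.p14. Capitals mark E2F words (TTTCCCGC, TTTCGCGC, TTTGCCGC or TTTGGCGC) and CCAAT, each on either strand, so that a CCAAT on the other strand reads ATTGG. ORC5, RFC4, PRIM1 and RRM1 are shown because they passed the fold bound, CDT1 and GMNN as the licensing factor and its inhibitor, MCM6 for its neighbouring E2F and CCAAT words, and RRM2 for its signal in knockdown replicate 1. For GMNN and RRM2, which have more than 1 annotated start, the promoter with marked words is shown.
ORC5 (chr7:104208014-104208133, minus strand): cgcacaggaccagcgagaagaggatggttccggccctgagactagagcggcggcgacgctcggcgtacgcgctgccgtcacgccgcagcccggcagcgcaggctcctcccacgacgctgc
RFC4 (chr3:186806483-186806602, minus strand): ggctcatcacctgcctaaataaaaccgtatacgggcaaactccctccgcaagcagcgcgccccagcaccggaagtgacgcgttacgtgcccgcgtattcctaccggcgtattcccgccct
PRIM1 (chr12:56752324-56752443, minus strand): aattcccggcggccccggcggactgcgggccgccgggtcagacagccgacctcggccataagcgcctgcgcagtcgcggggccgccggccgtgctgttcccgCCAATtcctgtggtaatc
RRM1 (chr11:4094565-4094684, plus strand): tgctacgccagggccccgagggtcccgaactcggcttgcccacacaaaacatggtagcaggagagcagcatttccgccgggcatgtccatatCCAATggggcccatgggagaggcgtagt
CDT1 (chr16:88803669-88803788, plus strand): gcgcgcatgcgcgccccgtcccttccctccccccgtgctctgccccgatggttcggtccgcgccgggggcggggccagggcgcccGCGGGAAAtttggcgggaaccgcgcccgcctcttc
GMNN (chr6:24775293-24775412, plus strand): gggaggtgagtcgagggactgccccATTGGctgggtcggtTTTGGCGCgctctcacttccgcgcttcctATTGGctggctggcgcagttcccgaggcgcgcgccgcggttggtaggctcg
MCM6 (chr2:135876444-135876563, minus strand): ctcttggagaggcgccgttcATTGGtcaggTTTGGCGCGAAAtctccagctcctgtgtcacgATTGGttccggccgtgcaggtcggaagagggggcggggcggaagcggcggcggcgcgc
RRM2 (chr2:10122619-10122738, plus strand): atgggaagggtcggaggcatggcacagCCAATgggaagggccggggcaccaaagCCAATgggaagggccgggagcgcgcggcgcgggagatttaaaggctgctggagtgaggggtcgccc

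None of ORC5, RFC4, PRIM1, RRM1 and RRM2 held an E2F word in these 120 bases. CDT1 held GCGGGAAA 35 bases before the start, GMNN held TTTGGCGC 80 bases before the start, and MCM6 held overlapping words on both strands. MCM6 and this GMNN promoter were shown for their words, so no contrast with the genes past the bound is drawn. A match of letters is not a bound site, and a missing match covers these words and this window alone. Promoters of 250 bases before the start were found for 48 of the 54 genes, and those of MCM4, MCM5, GINS4, POLD3, RPA2 and RPA3 were not analysed here. An E2F word was in 16 of the 48 (33.3%), against 4.57% of 15399 array genes and 2.79% of 35116 RefSeq promoters. CCAAT was in 60.4% of the 48 and 39.8% of array genes, and the CHR word TTTGAA, found in front of many mitotic genes, in 6.25% of the 48 and 13.8% of array genes. Genes with an E2F word (16) had a median change of 0.38 on the log2 scale, and the 32 without it 0.48, given as a description with no test.

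Of the 54 genes, 4 had higher RNA in the knockdown past the fold bound: ORC5, a subunit of the origin recognition complex, RFC4, a subunit of the clamp loader, PRIM1, the catalytic subunit of primase, and RRM1, the large subunit of ribonucleotide reductase. No gene of the 54 was lower past the bound. A gene passes the bound when the lower end of the 90% confidence interval of its fold change, from the standard error of limma, exceeds 1.2. Across all genes 1.57% passed it as higher and 3.64% as lower. After Benjamini-Hochberg adjustment over all genes, limma called 0% of genes at 0.05 and none of the 54 (smallest adjusted p = 0.59). Without adjustment, 4 of the 54 were higher at p under 0.05 (2.34% of all genes) and 1, RFC1, was lower (6.05% of all genes). An exact permutation test of 2 arrays against 2 cannot give a two-sided p under 0.333, so none is given for single genes. In RNA of a whole culture, a change in the share of cells in S phase and a change in the RNA of each cell cannot be told apart.

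The 54 genes leaned upward as a set of values. Their median log2 fold change was 0.41, against -0.01 for all genes, with 39 positive (72.2%, against 48.5% of all genes) and 15 negative. Both knockdown arrays lay above both control arrays in 21 genes (38.9%, against 18.4% of all genes) and below them in 7 (13.0%, against 26.3%), and the groups overlapped in 26. This lean came mostly from knockdown replicate 1. Its median difference from the control mean was 0.69 over the 54 genes (-0.09 over all genes), while that of knockdown replicate 2 was 0.06 (0.01 over all genes). Knockdown replicate 1 was the brightest array in 34 of the 54 genes (63.0%, against 22.0% of all genes), and in 17 it exceeded every other array by more than 1 log2 unit (31.5%, against 8.17%). It also had the most genes of the set above background, 34 (63.0%, against 27.8% of all genes). The control arrays had 10 (18.5%, against 15.2%) and 3 (5.56%, against 10.4%). Knockdown replicate 2 had 14 (25.9%, against 23.3%). By the brightest probe set, PCNA, GINS2 and POLE were each above background on every array, as were 1510 of all 19774 genes. In knockdown replicate 1 alone 21 of the 54 were above it, against 1806 of all genes. A further 18 (33.3%) were above it on no array, against 64.5% of all genes.

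**Figure D1:**
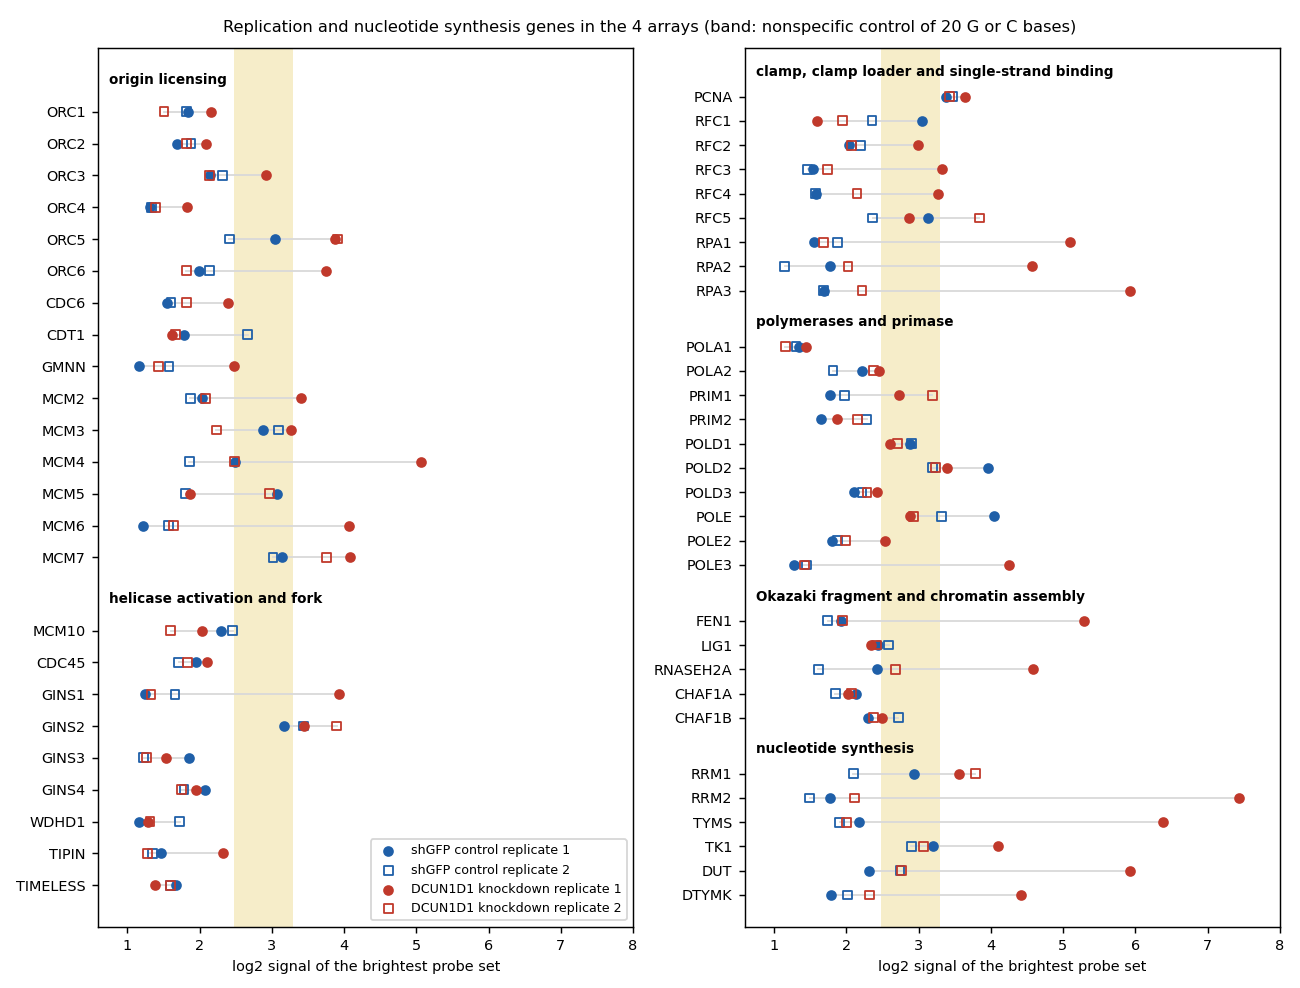
Log2 signal of the brightest probe set of each of the 54 genes on each array, by role. Blue symbols are the shGFP control and red the DCUN1D1 knockdown, circles replicate 1 and squares replicate 2, and the shaded band runs from the lowest (2.48) to the highest (3.30) nonspecific control reading. Most genes lie in or to the left of the band on 3 of the arrays, with knockdown replicate 1 far to the right for RRM2, TYMS, RPA3 and DUT.

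Of the origin licensing genes, 1 of 15 (ORC5) was higher past the bound and 0 were lower. The median log2 fold change was 0.53, with 12 positive, and knockdown replicate 1 was the brightest array in 12 of 15. That median was 0.07 without knockdown replicate 1 and 0.81 without knockdown replicate 2. ORC5 had log2 signals of 3.04 and 2.41 in the control and 3.87 and 3.90 in the knockdown. The groups did not overlap and the knockdown replicates lay close together, a log2 fold change of 1.16 (SE 0.40, lower bound 1.28-fold, limma adjusted p = 0.59). Its 2 dimmer probe sets gave 0.39 and -0.27 and were above background on no array. ORC1, ORC2, ORC3, ORC4 and ORC6, the other subunits, had log2 fold changes of 0.00 to 0.72. ORC1, ORC2 and ORC4 were above background on no array, and ORC3 and ORC6 in knockdown replicate 1 alone.

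CDT1 and its partners did not pass the bound. CDT1, the loading factor that cullin-RING ligases degrade, had signals of 1.79 and 2.66 in the control and 1.62 and 1.67 in the knockdown. The knockdown arrays lay below the controls by a log2 fold change of -0.58 (SE 0.34), at signals below background on every array. Its second probe set went the other way, with 1.28 and 1.24 in the control and 3.30 and 1.70 in the knockdown (log2 fold change 1.25), so the direction for CDT1 RNA was not settled, and the mean of both sets was 0.33. GMNN, which blocks CDT1, had signals of 1.16 and 1.58 in the control and 2.48 and 1.43 in the knockdown (log2 fold change 0.59, SE 0.39), with the second knockdown array within the controls. CDC6, which joins ORC before the helicase is loaded, had 1.55 and 1.60 in the control and 2.39 and 1.82 in the knockdown (0.53, SE 0.25). The dimmer CDC6 probe set gave -0.05. These arrays measure RNA, and the CDT1 protein was not measured.

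The MCM2-7 helicase subunits had a median log2 fold change of 0.82, with 0 of 6 past the bound. Their median difference from the control mean was 1.23 in knockdown replicate 1 and 0.27 in knockdown replicate 2. MCM7 had signals of 3.14 and 3.02 in the control and 4.09 and 3.76 in the knockdown (log2 fold change 0.85, SE 0.38, lower bound 1.06-fold), and its second probe set also had both knockdown arrays above the controls (2.29 and 2.37 against 3.34 and 2.63). MCM6 read 1.22 and 1.57 in the control, 4.07 in knockdown replicate 1 and 1.64 in knockdown replicate 2 (log2 fold change 1.46, SE 0.82). The dimmer MCM6 probe set gave -0.04. MCM4 read 2.49 and 1.86 in the control, then 5.07 and 2.48 (1.60, SE 0.91). For both MCM4 and MCM6 the second knockdown array lay within 0.31 log2 units of the control mean. MCM2 had a similar shape, with 2.03 and 1.87 in the control and 3.40 and 2.09 in the knockdown. MCM3 and MCM5 had log2 fold changes of -0.24 and -0.02 and overlapping groups. The dimmer MCM5 probe set had both knockdown arrays above the controls (1.93 and 1.79 against 2.89 and 2.18, log2 fold change 0.67).

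The genes that activate the helicase and travel with the fork had a median log2 fold change of -0.08. In either direction 0 of 9 passed the bound, and 7 of 9 (77.8%, against 64.5% of all genes) were above background on no array. MCM10, which is needed for helicase activation, had signals of 2.29 and 2.46 in the control and 2.04 and 1.60 in the knockdown (log2 fold change -0.56, SE 0.25). Its dimmer probe sets gave 0.26 and -0.04. GINS2, a GINS subunit, was above background on every array by its brightest probe set. That set read 3.17 and 3.44 in the control and 3.44 and 3.90 in the knockdown (0.37, SE 0.40), a difference below its standard error. Another GINS2 set read 4.05 in knockdown replicate 1 and 1.84 to 2.12 elsewhere (1.11), and the last gave -0.09. GINS1 read 3.92 in knockdown replicate 1 and 1.25 to 1.66 on the other arrays. TIMELESS, which with TIPIN protects a stalled fork, had 1.67 and 1.60 in the control and 1.38 and 1.59 in the knockdown (-0.15, SE 0.15). The dimmer TIMELESS set gave 0.33. CDC45, GINS3, GINS4, WDHD1 and TIPIN had log2 fold changes of -0.14 to 0.40 with overlapping groups.

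Clamp, clamp loader and single-strand binding genes had a median log2 fold change of 1.03, with 8 of 9 positive, 1 higher past the bound and 0 lower. RFC4 read 1.58 on both control arrays and 3.27 and 2.15 in the knockdown (log2 fold change 1.13, SE 0.42, lower bound 1.22-fold, limma adjusted p = 0.59). Its groups did not overlap, but the control arrays and knockdown replicate 2 were below background, and the knockdown mean lay under the background of the control arrays, so no fold is given. RFC1, the large subunit of the same loader, had 3.05 and 2.36 in the control and 1.59 and 1.95 in the knockdown (log2 fold change -0.93, SE 0.33, lower bound 1.19-fold). RFC1 was thus just outside the bound, on the opposite side from RFC4, and its 2 other probe sets gave -0.09 and -0.02. RFC5 read 3.13 and 2.37 in the control and 2.87 and 3.84 in the knockdown (0.61, SE 0.50), with overlapping groups, and RFC2 and RFC3 had log2 fold changes of 0.41 and 1.03.

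PCNA had the smallest change of the 3 genes above background on every array, with 3.39 and 3.47 in the control and 3.64 and 3.43 in the knockdown. Its log2 fold change of 0.11 (SE 0.37, limma adjusted p = 0.93) was smaller than its error, and the groups overlapped. The RPA genes, which encode the 3 subunits of the single-strand binding complex, were highest in knockdown replicate 1 by their brightest probe sets. RPA3 read 1.70 and 1.68 in the control and 5.93 and 2.22 in the knockdown (log2 fold change 2.39, SE 1.23). RPA2 read 1.77 and 1.14, then 4.57 and 2.02 (1.84, SE 0.88), and RPA1 1.56 and 1.88, then 5.10 and 1.68 (1.67, SE 1.13). The median of the 3 was 3.38 above the control mean in knockdown replicate 1 and 0.53 above it in knockdown replicate 2. Outside knockdown replicate 1 these genes were below background. The dimmer RPA1 probe sets gave 0.76 and -0.001.

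The polymerases and primase had a median log2 fold change of 0.12, with 1 of 10 higher past the bound and 0 lower. PRIM1 had signals of 1.77 and 1.98 in the control and 2.73 and 3.19 in the knockdown. Knockdown replicate 2 was the brighter of the pair, and the log2 fold change of 1.08 (SE 0.29, lower bound 1.41-fold, limma adjusted p = 0.59) had the smallest relative error of the 4 genes past the bound. Its controls were below background and the knockdown mean lay under the background of the control arrays, so this too is a difference in signal with no fold. POLE, the catalytic subunit of the leading-strand polymerase, was above background on every array and read 4.05 and 3.32 in the control and 2.89 and 2.93 in the knockdown (log2 fold change -0.78, SE 0.41). Its groups did not overlap, and the difference did not pass the bound. Its accessory subunit POLE2 had 1.81 and 1.88 in the control and 2.54 and 1.99 in the knockdown (0.42, SE 0.27), and POLE3 read 4.25 in knockdown replicate 1 against 1.28 to 1.45 elsewhere. POLD2, an accessory subunit of the lagging-strand polymerase, read 3.96 and 3.19, then 3.39 and 3.23 (-0.27, SE 0.44). POLA1, POLA2, PRIM2, POLD1 and POLD3 had log2 fold changes of -0.24 to 0.40.

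**Figure D2:**
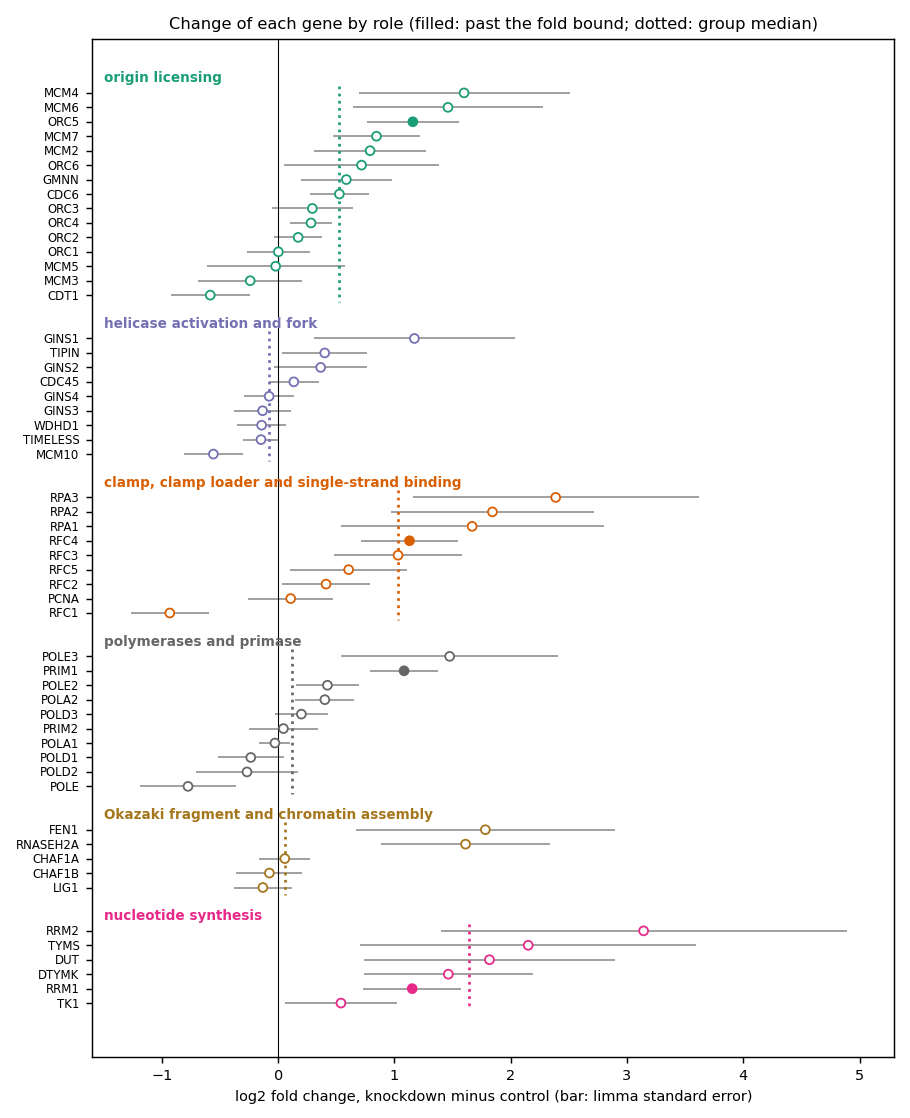
Log2 fold change (knockdown minus control) of each gene with its limma standard error as a bar, by role, from 2 arrays a group. Filled points passed the fold bound and dotted lines are the group medians, which run from -0.08 for helicase activation and fork to 1.64 for nucleotide synthesis. The genes with the largest changes, RRM2 and RPA3, have standard errors of 1.75 and 1.23.

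Okazaki fragment and chromatin assembly genes had a median log2 fold change of 0.06, with 0 of 5 past the bound. FEN1, the nuclease that trims primer flaps, read 1.93 and 1.75 in the control and 5.29 and 1.95 in the knockdown (1.78, SE 1.11), and its second probe set read 4.63 in knockdown replicate 1 and 1.52 to 2.03 elsewhere. RNASEH2A, the catalytic subunit of an enzyme that removes RNA from DNA, read 2.43 and 1.61 in the control and 4.58 and 2.68 in the knockdown (1.61, SE 0.72, lower bound 1.10-fold). Both knockdown arrays of RNASEH2A were above background and above both controls, and of those among the 54 genes that did not pass it came nearest to the bound as higher. LIG1, which seals the fragments, had 2.44 and 2.59 in the control and 2.34 and 2.42 in the knockdown (-0.13, SE 0.25). CHAF1A and CHAF1B, subunits of the CAF-1 histone chaperone, had log2 fold changes of 0.06 and -0.08 with overlapping groups.

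Nucleotide synthesis had the highest median of the 6 groups, 1.64, and each of its 6 genes had a positive log2 fold change, 1 of them past the bound. With the mean over all probe sets of each gene the median was 0.74. Ribonucleotide reductase makes deoxyribonucleotides from ribonucleotides with a large and a small subunit, and its genes had different shapes. RRM1, the large subunit, read 2.94 and 2.09 in the control and 3.56 and 3.79 in the knockdown (log2 fold change 1.15, SE 0.42, lower bound 1.22-fold, limma adjusted p = 0.59). Measured against background, since its controls were not above it, the difference of the means was at least 1.45-fold. That figure leaves out the spread between arrays, which the lower bound of 1.22-fold includes. RRM2, the small subunit that cells make in S phase, read 1.77 and 1.49 in the control, 7.44 in knockdown replicate 1 and 2.11 in knockdown replicate 2 (3.14, SE 1.75). The knockdown mean was at least 3.11-fold above background, but knockdown replicate 1 carried it: knockdown replicate 2 was itself below background, and the change did not pass the bound. The second RRM2 probe set had the same shape, with 7.55 in knockdown replicate 1 and 0.93 in knockdown replicate 2, the latter below both controls (1.16 and 1.42).

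By their brightest probe sets, TYMS, DUT and DTYMK resembled RRM2 in reading far higher in knockdown replicate 1 than elsewhere. TYMS, thymidylate synthase, read 2.17 and 1.91 in the control and 6.38 and 2.0 in the knockdown (2.15, SE 1.45), so knockdown replicate 2 lay between the controls. DUT, which makes its substrate, read 2.31 and 2.74, then 5.92 and 2.77 (1.82, SE 1.08), on a probe set of the _x_at kind, which may cross-hybridise. Another DUT set, above background on 3 arrays, read 3.13 and 2.68, then 4.22 and 2.56 (0.49), and the last gave -0.04. DTYMK, the next kinase in the path, read 1.78 and 2.02, then 4.41 and 2.32 (1.46, SE 0.73), and changed by 0.04 after quantile normalization, where another of its probe sets was the brightest. TK1, the thymidine salvage kinase, read 3.20 and 2.90, then 4.10 and 3.07 (0.54, SE 0.49), with overlapping groups, and its dimmer probe set gave -0.07. In knockdown replicate 2 the 6 genes had a median of 0.33 above the control mean, against 2.95 in knockdown replicate 1.

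**Figure D3:**
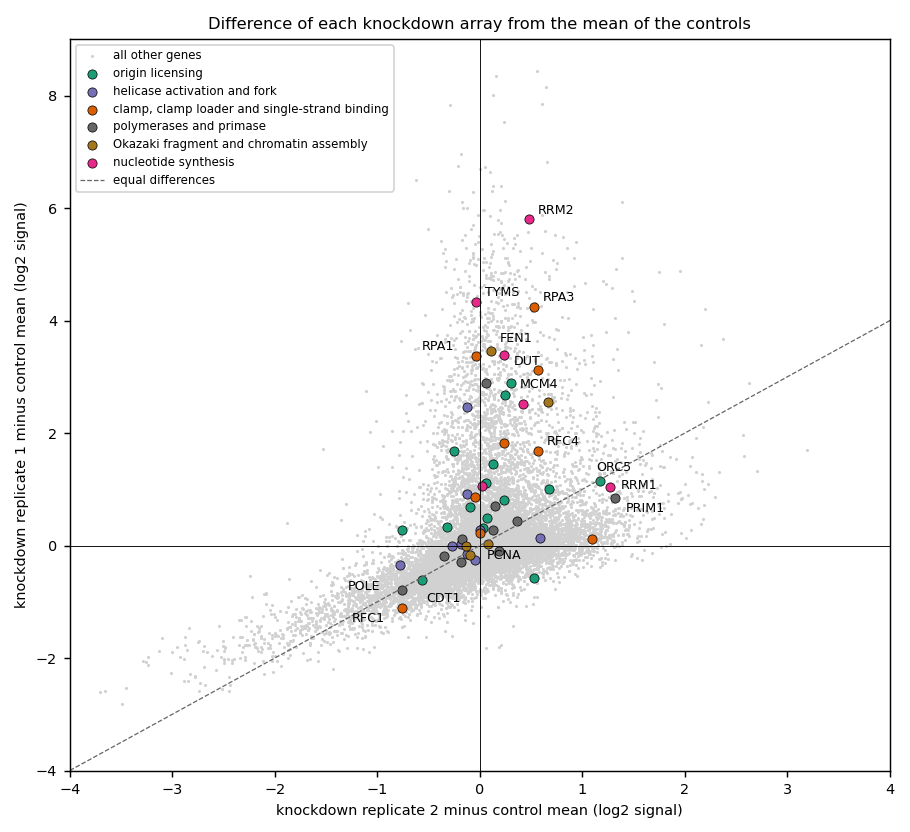
Difference of knockdown replicate 2 (horizontal) and knockdown replicate 1 (vertical) from the control mean, in log2 signal, for the 54 genes (coloured by role) and all other genes (grey). The dashed line marks equal differences. ORC5, RRM1 and PRIM1 lie near it at 0.85 to 1.32 on both axes, whereas RRM2, TYMS, RPA3, RPA1, FEN1 and DUT lie high on the vertical axis and at most 0.53 along the horizontal one.

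Leaving out 1 array at a time showed which calls rest on which array. Without knockdown replicate 1, RRM1 and PRIM1 passed the bound as higher, against 3.59% of all genes, and the median of the 54 genes was 0.06. Without knockdown replicate 2, 22 of the 54 passed it as higher, against 11.4% of all genes, RFC1 passed as lower, against 2.98%, and the median was 0.69. Without control replicate 1, RRM1 and ORC5 passed as higher (1.41% of all genes) and CDT1 as lower (4.67% of all genes). Without control replicate 2, 0 passed as higher (0.197% of all genes) and RFC1 passed as lower (1.73% of all genes). None of the 4 genes therefore passed in each of the 4 subsets. After quantile normalization of all 4 arrays, RFC4 and PRIM1 still passed and ORC5 and RRM1 did not. In each subset the lone array was assumed to vary like the group left whole.

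Different probe sets of a gene often disagreed. Of the 31 genes with several probe sets, 12 had positive changes in each set, 1 (RFC1) had negative changes in each set and 18 had both directions. Over the 107 probe sets, 75 changes were positive and 32 negative, with a median of 0.26, and 55 sets were above background on no array. Testing every probe set separately gave 3 past the bound as higher and 0 as lower. For RRM1, the brightest set was then just short (lower bound 1.19-fold), and its second set read 1.49 and 1.92 in the control and 3.60 and 1.63 in the knockdown.

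**Figure D4:**
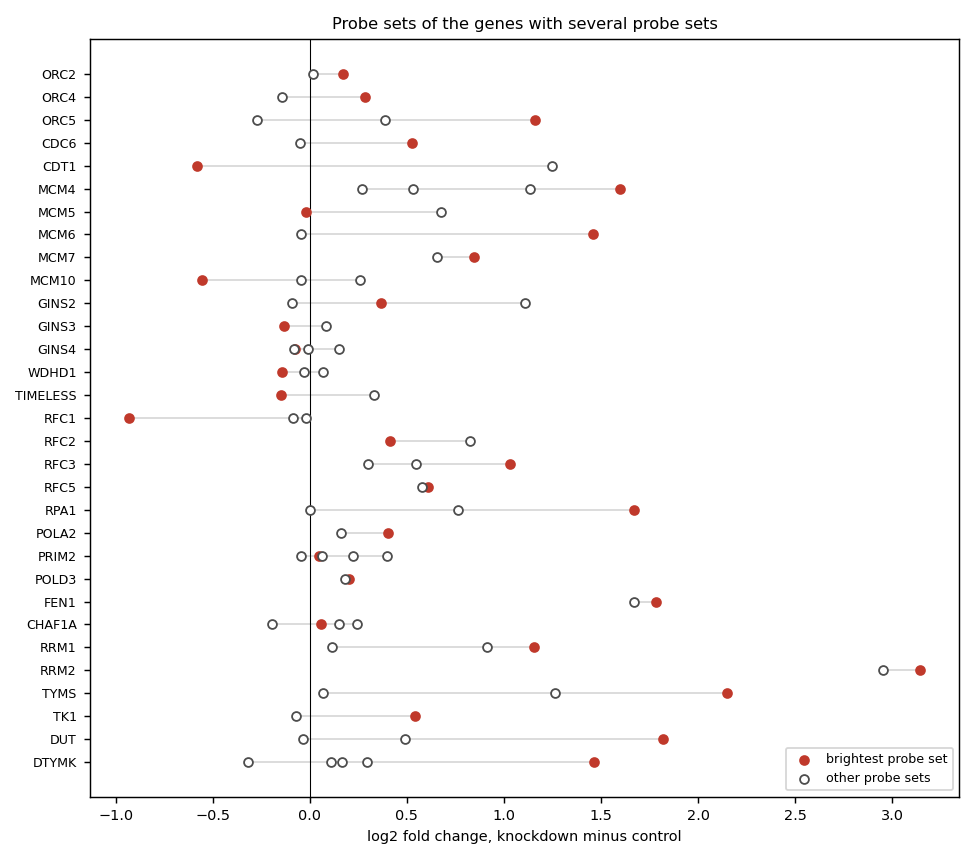
Log2 fold change (knockdown minus control) of every probe set of the 31 genes with several, with the brightest set filled. The sets of RRM2 and of FEN1 lie close together (2.95 and 3.14 for RRM2), while those of CDT1 lie on opposite sides of zero at -0.58 and 1.25.

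A wider list of replication pathway genes, written beside the 54 and without them, had 95 measured of 99. It gave 3 genes higher past the bound (against 1.57% of all genes) and 2 lower (against 3.64% of all genes). Its median log2 fold change was 0.52. GART, an enzyme of purine synthesis, read 3.16 and 2.87 in the control and 4.66 and 4.69 in the knockdown (log2 fold change 1.66, SE 0.41). MCMBP, which binds MCM proteins, read 1.54 and 1.2, then 2.77 and 1.98 (1.00, SE 0.33), and DDB1, the adaptor of the CUL4 ligase that targets CDT1, read 1.77 and 1.81, then 2.92 and 2.41 (0.88, SE 0.28). POLG, the mitochondrial DNA polymerase, read 4.48 and 5.20 in the control, then 2.81 and 2.54 (-2.16, SE 0.46), and TONSL, which acts at damaged forks, read 2.79 and 2.76, then 1.74 and 1.71 (-1.05, SE 0.22). In each of these 5 genes the groups did not overlap. POLG was above background on every array, GART on 3 arrays, MCMBP and DDB1 in knockdown replicate 1 alone and TONSL on no array, so for the last of these the change is between signals below background. POLG and TONSL also passed the bound with any 1 array left out. GART did not pass without control replicate 2 (1.51), and MCMBP and DDB1 did not pass without either control array or without knockdown replicate 1 (0.60 and 0.62). With the mean over probe sets, GART (0.41), MCMBP (0.43) and TONSL (-0.37) did not pass. The median log2 fold change was 0.89 for 26 other nucleotide synthesis genes, 1.17 for 10 other chromatin assembly genes, 0.79 for 10 genes of the CUL4 and SKP2 ligases, 0.36 for 17 other polymerase, ligation and topoisomerase genes, 0.11 for 13 RB and E2F factors and 0.05 for 19 other initiation and fork genes. For the first 3 of these lists the median difference from the control mean was 1.08, 1.64 and 1.15 in knockdown replicate 1. The corresponding values for knockdown replicate 2 were 0.09, 0.27 and 0.23. Knockdown replicate 1 exceeded every other array by more than 1 log2 unit in 29 of the 95 (30.5%, against 8.17% of all genes).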

How the data were processed

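The authors deposited 1 table of log2 signals, 1 value a probe set and array, for 4 Affymetrix arrays. Affymetrix Expression Console is named in the submitters' notes, and dChip with a smoothing spline in the methods. The sources used here do not say which software the deposited values came from. Probe sets naming a single gene in the platform annotation were used, and those naming several genes (864) or none (12835) and 102 control sets were left out. Of the 40914 used, 40858 matched the RefSeq gene table.

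For each gene the brightest probe set, by its mean signal on all arrays, was used. Groups were compared with limma (version 3.58.1, R 4.3.3) with a variance trend, no block, and Benjamini-Hochberg adjustment over 19774 genes. The fold bound (lower end of the 90% interval above 1.2) follows the rule of the methods, not their software. Where a group was below background on both arrays, "at least" folds were taken against its nonspecific control or its own signal, whichever was higher, with no fold where that was under 1. These folds compare means and take no account of the spread between arrays. The number of arrays limits the precision.

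The 54 genes and the other lists were chosen with earlier results of these data known. Named were DCUN1D1, CDT1, GMNN, CDC6, PCNA, RRM1, RRM2, TYMS and TK1, every gene past the bound, and by role the 3 largest changes with separate groups and the 2 brightest genes. Other genes of the 54 are named to account for each member or were picked after their values were seen, as were the promoters shown. Replicate numbers were not used as pairs in the main fit, and the labels do not say whether they pair the samples. Over all genes the replicate differences of the groups had a correlation of -0.04, which cannot settle this. The fit was also run on simulated arrays with independent noise for each gene. These had no array-wide differences like those seen here, so that run does not bear on the calls. Alternatives were quantile normalization, median centring, filters on signal, the mean over probe sets, every probe set, other variance models and thresholds, a replicate block, and leaving out each array. The filter at the nonspecific control was added after seeing the data. Motifs were searched on both strands. The proteomic, blotting and tumour experiments were not analysed here.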

Additional observations from a re-analysis of the deposited data

How the results depend on the processing

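Of the 54 genes, 4 were higher past the fold bound. That count was 2 with the mean over probe sets, 2 with unmoderated standard errors, 0 by limma's adjusted p, and 0 to 22 when 1 array was left out. The count of lower genes, 0, became 1 with quantile normalization, 1 with median centring, 1 at an unadjusted p under 0.05, and 0 to 1 when 1 array was left out. With the replicate block 4 genes were higher (1.78% of all genes) and 0 lower (2.61%), but RPA2 and RNASEH2A replaced ORC5 and RRM1. Quantile normalization gave 5 higher (1.5% of all genes), without ORC5 and RRM1. Over all genes, the share higher was 1.57%, then 0.87% with the mean over probe sets and 0.895% with unmoderated standard errors. It thus fell in the same settings as the count of the 54. The share lower was 3.64%, then 4.11% with quantile normalization, 3.67% with median centring and 6.05% at an unadjusted p under 0.05. A further filter kept genes above the nonspecific control on both arrays of either group. It left 13 members, of which ORC5, PRIM1 and RRM1 (3) were higher, against 6.67% of the genes left. These 3 entered by their knockdown arrays and not by their controls, so the filter favoured genes high in the knockdown. No conclusion is drawn from that count.

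The helicase and fork median, -0.08, was 0.37 with the genes above the median signal, 0.09 with the mean over probe sets and -0.13 to 0.18 when 1 array was left out. The clamp group median, 1.03, was 0.24 to 1.69 when 1 array was left out. With the mean over probe sets, CDT1 was 0.33 and TIMELESS was 0.090. With quantile normalization PCNA was -0.16. When 1 array was left out, the log2 fold change ran from -0.00069 to 0.22 for PCNA, from -0.039 to 4.34 for TYMS and from -0.65 to 0.12 for POLD2. Of 504 values recomputed for the 33 named genes, 430 kept both direction and side of the threshold. Several settings changed only the standard error, the threshold or the genes kept, so the direction could not change there. Most named genes had not passed the bound, and staying so counted as kept. That count is therefore no measure of how stable the results are. The causes were not tested. Most of these genes were near background, which limits each direction given.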
